A study of Mus musculus with 8 samples.

Results

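The 9 genes described here encode the core of the bone morphogenetic protein (BMP) response in muscle. They are the receptor genes *Bmpr1a*, *Acvr1* and *Bmpr2*, the signal transducers *Smad1* and *Smad5*, the inhibitory *Smad6*, and the target genes *Id1*, *Id2* and *Id3*. They were chosen by name, and all 9 of 9 are among the 12551 genes of the deposited counts and passed the filter on low counts. RNA came from whole tibialis anterior (TA) muscles of male mice, 7 weeks of age, of which 4 were wild-type (WT, labelled Klotho wt/wt) and 4 were homozygous mutants (KL-/-, labelled Klotho null/null). The series' design text calls the mice littermates, the parents were heterozygous on a mixed background, and the labels name no treatment. The mutants lack Klotho, a circulating and membrane-bound protein of the kidney and other organs, in every tissue, so a difference in muscle need not start in muscle. *Kl* is not among the genes counted, so the genotypes could not be checked in these counts. The study states that its mice were genotyped by PCR. It also reports no detectable Klotho protein in mutant kidney and muscle by immunoblot, and no detectable *Kl* mRNA in mutant muscle by qRT-PCR.

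BMP ligands bring together type I receptors, among them BMPR1A and ACVR1, and type II receptors, among them BMPR2. The type I receptor then phosphorylates SMAD1 and SMAD5, which enter the nucleus with SMAD4 and switch on ID genes and *Smad6*. ID proteins bind E proteins and thereby hold back transcription factors of the MyoD family, while SMAD6 dampens the pathway at the receptor. In adult skeletal muscle, BMP signaling is known to support muscle mass and to oppose the myostatin arm, and it is needed for the response of muscle to loss of its nerve. ID genes, *Smad6* and BMP receptors are also well expressed in endothelium, which whole muscle contains.

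In KL-/- muscle 1 of the 9 genes changed beyond the threshold of a false discovery rate (FDR) under 0.05, *Acvr1*, which fell by 20.3%. Over all genes tested 14.0% passed that threshold, so the count among the 9 lay near the background. *Id1* and *Id3* had higher means and *Id2* a lower mean in KL-/- muscle, with log2 fold changes of 1.26, 0.42 and −0.66, and none of the 3 passed. *Smad1*, *Smad5*, *Smad6*, *Bmpr1a* and *Bmpr2* had absolute log2 fold changes of 0.20 or less. The median log2 fold change of the 9 genes was −0.093, beside −0.016 over all 12551 genes, with 4 genes positive and 5 negative. Fold changes are KL-/- over WT from edgeR's quasi-likelihood test with TMM factors and Benjamini-Hochberg adjustment over all genes.

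**Figure D1:**
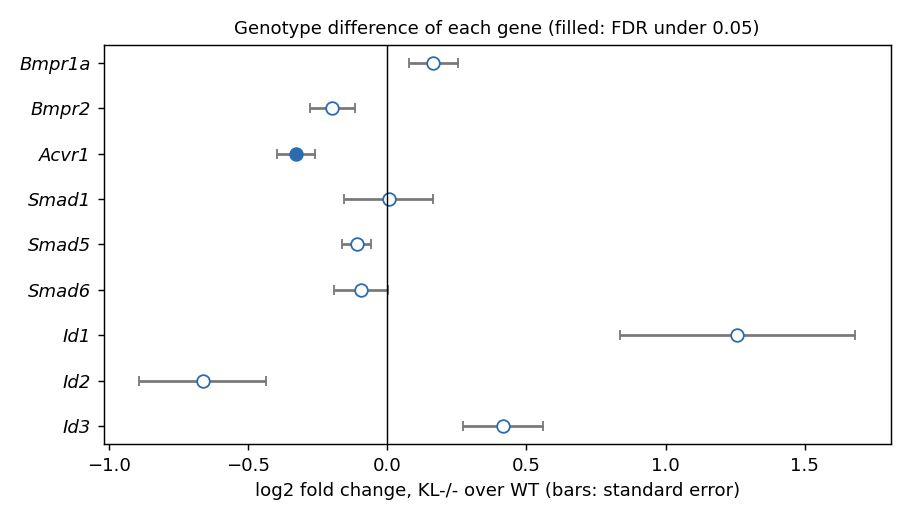
Log2 fold change of each of the 9 genes, KL-/- over WT, with bars for the standard error and filled points for an FDR under 0.05. The single filled point is *Acvr1* at −0.33, and *Id1* lies farthest from 0 with the widest bar, at 1.26 with a standard error of 0.42.

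Promoter sequences were at hand for 8 of the 9 genes, and there is none for *Id1* in the table used. The 3 promoters of target genes are printed because the ID genes and *Smad6* are where the pathway is read out, and because *Id2* and *Id3* differed in direction. Each runs 5′ to 3′ from 250 bases before the RefSeq start to the 4th base from it, on GRCm38.p6, which is mm10. Capitals mark GGCGCC, a GC-rich site of the SMAD1/5 type, and GTCTAGAC, the palindromic SMAD box. Both motifs read the same on either strand and do not overlap each other. The *Id2* window is chr12:25096089-25096342 on the minus strand, the *Id3* window chr4:136143572-136143825 on the plus strand and the *Smad6* window chr9:64022056-64022309 on the minus strand.
Id2: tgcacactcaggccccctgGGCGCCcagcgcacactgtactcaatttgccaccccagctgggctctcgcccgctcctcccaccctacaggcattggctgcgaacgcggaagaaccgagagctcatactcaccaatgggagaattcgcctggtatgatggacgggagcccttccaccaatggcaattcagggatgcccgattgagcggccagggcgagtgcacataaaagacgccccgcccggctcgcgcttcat
Id3: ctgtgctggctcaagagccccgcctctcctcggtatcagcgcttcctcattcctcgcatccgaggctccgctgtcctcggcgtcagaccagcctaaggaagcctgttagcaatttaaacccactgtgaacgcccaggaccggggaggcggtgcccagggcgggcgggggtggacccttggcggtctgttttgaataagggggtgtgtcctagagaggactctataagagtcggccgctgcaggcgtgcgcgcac
Smad6: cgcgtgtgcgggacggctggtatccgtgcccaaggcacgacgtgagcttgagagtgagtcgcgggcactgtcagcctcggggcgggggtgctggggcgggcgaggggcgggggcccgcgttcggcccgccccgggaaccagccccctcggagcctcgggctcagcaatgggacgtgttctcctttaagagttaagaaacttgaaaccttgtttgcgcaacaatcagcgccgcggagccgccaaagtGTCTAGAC

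The *Id2* window holds GGCGCC, 231 bases before the start, and the *Smad6* window holds GTCTAGAC, which begins 4 bases before the start. The *Id3* window holds neither. In the full 300-base windows of 27025 promoters outside chromosome 18, 11.96% hold GGCGCC and 0.21% hold GTCTAGAC. Among the receptor genes, GGCGCC lies 198 bases before the start of *Bmpr1a* and 105 bases before that of *Bmpr2*, and *Acvr1* and *Smad1* hold neither motif. *Smad5* has 3 listed starts, and 1 match lies 19 bases before the second of them, inside the window of the first as well. Among the promoters of counted genes alone, 21.7% hold GGCGCC and 0.2% hold GTCTAGAC. A match is a run of letters and not a site of binding, and the count data say nothing of binding.

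Between 20860262 and 29273758 counts fell on genes per library. The batch date in the labels is shared by 7 libraries and differs for KL-/- replicate 3 alone, so that date and that mouse cannot be told apart. No source says that 2 libraries came from the same mouse, and no pair within a genotype agreed within sampling noise. The summed TMM-normalized CPM (counts per 1000000) of 7 myofiber markers were 101175 to 116581 in WT and 118338 to 141180 in KL-/- muscle, with 7 of 7 positive and 0 past the threshold. No measured marker was at 0 counts in any library, but the deposited counts were already limited to expressed genes. Of the adipocyte list 4 of 6 markers were measured, and of the red blood cell list 1 of 5. The 10 endothelial markers summed to 596 to 852 CPM in WT and 576 to 618 CPM in KL-/- muscle, with 9 of 10 negative and 1, *Kdr*, past the threshold (log2 fold change −0.90, edgeR FDR = 0.00781). The 8 fibro-adipogenic markers summed to 830 to 3034 CPM in WT and 459 to 1362 CPM in KL-/- muscle, with 3 of 8 lower at an FDR under 0.05. The 10 macrophage and leukocyte markers summed to 44.4 to 100.2 CPM in WT and 31.5 to 61.6 CPM in KL-/- muscle, with 2 of 10 lower. Of the other lists, 3 of 6 Schwann cell, 1 of 8 pericyte and smooth muscle and 1 of 4 adipocyte markers were higher, and 0 of 6 satellite cell markers passed. In whole muscle, fewer cells of a type and less RNA per cell cannot be told apart.

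*Acvr1* (chromosome 2, 58446438 to 58566828 of mm10, minus strand) encodes the type I receptor ALK2, whose overactive form causes bone to grow in muscle. It was at 23.8, 25.7, 23.5 and 23.7 CPM in WT replicates 1 to 4 and at 20.0, 18.9, 17.9 and 20.2 CPM in KL-/- replicates 1 to 4. Every KL-/- library lay below every WT library, and WT replicate 2 stood above the other 3 WT libraries. The WT mean was 24.2 ± 1.04 CPM and the KL-/- mean 19.3 ± 1.07 CPM (SD, n = 4). The log2 fold change was −0.33 (standard error 0.069, edgeR FDR = 0.0166). A drop toward KL-/- without overlap was seen in 9.47% of all genes tested. The call was lost without WT replicate 2 (log2 fold change −0.30, edgeR FDR = 0.0534) and without KL-/- replicate 3 (log2 fold change −0.29, edgeR FDR = 0.0520), and the direction was kept in all 8 fits that left out 1 library.

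*Bmpr1a* (chromosome 14, 34411068 to 34502546, minus strand) encodes the type I receptor ALK3. Its WT libraries were at 139, 145, 115 and 134 CPM and its KL-/- libraries at 154, 167, 135 and 143 CPM. The genotypes overlapped, with WT replicate 3 the lowest of all 8 libraries and KL-/- replicate 2 the highest. Its log2 fold change was 0.16 (standard error 0.089, edgeR FDR = 0.228). In the annotation 152 bases of its exons are shared with an antisense gene. Whether reads were counted by strand is not given in the sources used here.

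*Bmpr2* (chromosome 1, 59764279 to 59878081, plus strand) encodes the type II receptor shared by both type I receptors, and its loss is known from pulmonary arterial hypertension. It was at 164, 146, 149 and 167 CPM in WT and at 147, 135, 145 and 118.2 CPM in KL-/- muscle. The genotypes overlapped only through KL-/- replicate 1, which lay above WT replicate 2. Between genotypes the log2 fold change was −0.20 (standard error 0.081, edgeR FDR = 0.126). Scaled by library totals alone it was −0.32 (edgeR FDR = 0.0299), a scaling that moved the median of all genes by −0.12, about as far as it moved *Bmpr2*.

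**Figure D2:**
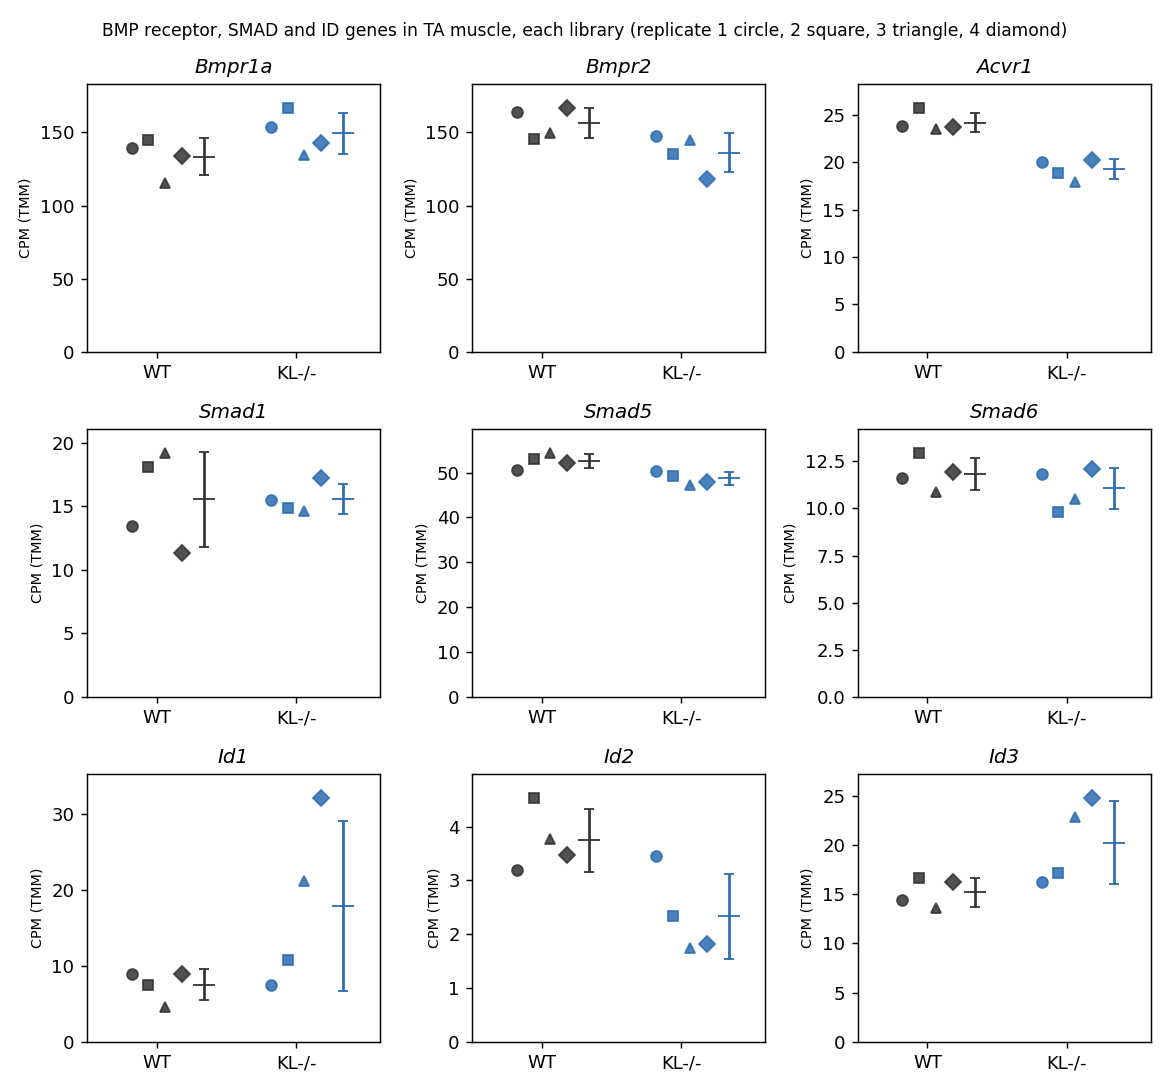
TMM-normalized CPM of each of the 9 genes in each library, with the mean and SD of each genotype to the right of its points and the y axes starting at 0. *Acvr1* and *Smad5* do not overlap between genotypes, and in *Id1* and *Id3* KL-/- replicates 3 and 4 lie above the other 6 libraries.

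Among the 3 receptor genes, the shares of *Bmpr1a* and *Acvr1* did not overlap between genotypes. Per kilobase of counted gene, *Bmpr1a* made up 50.6% to 55.8% of their summed level in WT and 57.1% to 63.0% in KL-/- muscle. *Acvr1* made up 15.2% to 17.1% in WT and 11.9% to 14.3% in KL-/- muscle. The level of *Bmpr1a* was 2.96 to 3.52 times that of *Acvr1* in WT and 4.26 to 5.31 times in KL-/- muscle, a ratio that does not depend on the scaling of the libraries. The share of *Bmpr2* overlapped, at 27.7% to 32.4% in WT and 24.9% to 30.3% in KL-/- muscle. These shares were examined because of the values of *Acvr1* and *Bmpr1a* and are given without a test.

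*Smad1* and *Smad5* encode the transducers that the type I receptors phosphorylate. *Smad5* (chromosome 13, 56703010 to 56742378, plus strand) was at 50.7, 53.0, 54.4 and 52.2 CPM in WT and at 50.5, 49.2, 47.2 and 47.9 CPM in KL-/- muscle. The genotypes did not overlap, though the lowest WT and the highest KL-/- library nearly met, and the coefficients of variation were 2.96% and 2.93%. *Smad5* and *Acvr1* were thus 2 of 9 genes that lay apart between genotypes, where 19.7% of all genes did. The difference was small, a log2 fold change of −0.11 (standard error 0.053, edgeR FDR = 0.182), and it did not pass the threshold. With library totals it was −0.23 (edgeR FDR = 0.0248), a move of the same size as that of the median of all genes. The annotation places a small noncoding gene on the same strand over 100 bases of its exons.

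*Smad1* (chromosome 8, 79338398 to 79399468, minus strand) was at 13.5, 18.1, 19.2 and 11.4 CPM in WT and at 15.5, 14.9, 14.6 and 17.2 CPM in KL-/- muscle. All KL-/- libraries lay within the WT range. The WT mean was 15.5 ± 3.74 CPM and the KL-/- mean 15.6 ± 1.17 CPM (SD, n = 4). That gave a log2 fold change of 0.0044 (standard error 0.16, edgeR FDR = 0.988). Without WT replicate 4 the log2 fold change was −0.12, and with library totals it was −0.11, so its sign depended on the setting. Per length, *Smad1* made up 33.9% to 45.4% of the sum of *Smad1* and *Smad5* in WT and 41.6% to 45.9% in KL-/- muscle. *Smad9*, the third gene of this class, added 1.01% to 2.36% of the sum of the 3 genes.

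*Smad6* (chromosome 9, 63953076 to 64022059, minus strand), the inhibitory SMAD that BMP signaling itself induces, lay between 10.9 and 13.0 CPM in the WT libraries and between 9.83 and 12.1 CPM in the KL-/- libraries. The genotypes overlapped over most of their range, at a log2 fold change of −0.093 (standard error 0.097, edgeR FDR = 0.535). With KL-/- replicates 2 and 3 both left out, an alternative added after seeing the data, it was 0.022.

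*Id1* (chromosome 2, 152736251 to 152737410, plus strand) is the target most often used as a readout of BMP signaling. It was at 8.94, 7.45, 4.58 and 8.89 CPM in WT and at 7.43, 10.7, 21.1 and 32.1 CPM in KL-/- replicates 1 to 4. KL-/- replicates 3 and 4 were the high libraries, KL-/- replicate 2 lay just above the WT libraries, and KL-/- replicate 1 lay within them. The WT mean was 7.46 ± 2.05 CPM and the KL-/- mean 17.8 ± 11.1 CPM (SD, n = 4). The log2 fold change was 1.26 (standard error 0.42, edgeR FDR = 0.0746). The highest KL-/- library was 4.32 times the lowest, against 1.95 times in WT. The edgeR FDR was 0.0322 without KL-/- replicate 1 and 0.0448 without KL-/- replicate 2. In the other 6 fits that left out 1 library it was above the threshold, up to 0.194 without KL-/- replicate 4. The log2 fold change was 0.81 without KL-/- replicate 4 and 1.53 without KL-/- replicate 1.

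*Id3* (chromosome 4, 136143822 to 136145392, plus strand) showed the same libraries on top. It was at 14.4, 16.6, 13.6 and 16.2 CPM in WT and at 16.2, 17.2, 22.8 and 24.8 CPM in KL-/- muscle. KL-/- replicates 3 and 4 again lay above the rest, and KL-/- replicate 1 lay within the WT range. The log2 fold change was 0.42 (standard error 0.14, edgeR FDR = 0.0824). The edgeR FDR was 0.0468 without KL-/- replicate 1 and 0.0446 without KL-/- replicate 2. In the other 6 fits that left out 1 library it was above the threshold, up to 0.202 without KL-/- replicate 4. The endothelial markers summed to 576, 584, 583 and 618 CPM in KL-/- replicates 1 to 4, and the part of endothelium in the ID values was not tested.

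*Id2* (chromosome 12, 25093799 to 25096092, minus strand) went the other way. It was at 3.18, 4.53, 3.77 and 3.48 CPM in WT and at 3.45, 2.34, 1.74 and 1.81 CPM in KL-/- muscle, from 42 to 99 counts per library. KL-/- replicates 3 and 4, the high libraries for *Id1* and *Id3*, were the lowest for *Id2*, and KL-/- replicate 1 lay within the WT range. The log2 fold change was −0.66 (standard error 0.23, edgeR FDR = 0.0797), and without KL-/- replicate 1 it was −0.92 (edgeR FDR = 0.0239). In the other 7 fits that left out 1 library the edgeR FDR was above the threshold, up to 0.188 without KL-/- replicate 4. The fibro-adipogenic markers summed to 1331, 2844, 3034 and 830 CPM in WT replicates 1 to 4. In KL-/- replicates 1 to 4 they summed to 981, 1362, 459 and 665 CPM. The part of the fibro-adipogenic markers in the *Id2* values was not tested.

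Within the ID family, the level of *Id3* per length was 4.80 to 6.23 times that of *Id2* in WT and 6.27 to 18.3 times in KL-/- muscle, so that the genotypes did not overlap, though KL-/- replicate 1 lay next to the WT libraries. The other ratios overlapped. *Id1* was 1.65 to 3.82 times *Id2* in WT and 2.93 to 24.1 times in KL-/- muscle. It was 0.344 to 0.635 times *Id3* in WT and 0.467 to 1.32 times in KL-/- muscle. These ratios are given without a test. *Id1* made up 22.2% to 35.3% of the summed level per length of the 3 genes in WT. In KL-/- replicates 1 to 4 it made up 28.7%, 36.7%, 47.1% and 55.6%. *Id2* made up 9.22% to 13.4% in WT and 2.30% to 9.80% in KL-/- muscle. In KL-/- replicate 4 *Id1* took the largest share, whereas *Id3* did in the other 7 libraries. *Id4*, which was named after its value was seen, had a WT mean of 0.855 and a KL-/- mean of 0.922 CPM. Its log2 fold change was 0.087 (edgeR FDR = 0.827), and −0.029 with library totals.

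**Figure D3:**
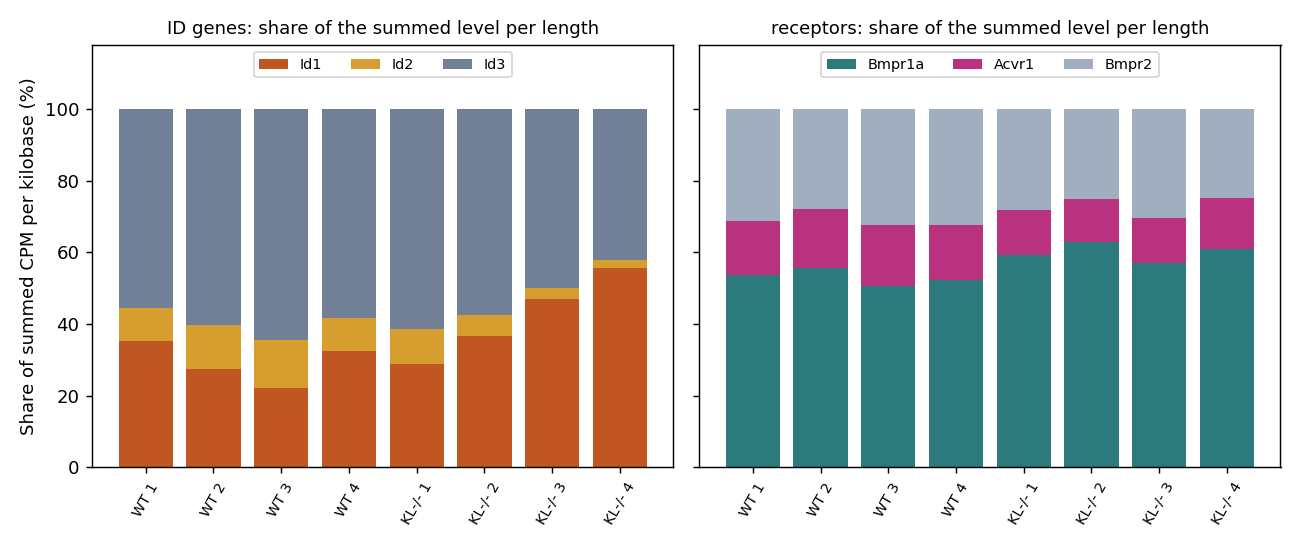
Share of the summed level per kilobase taken by each ID gene (left) and by each receptor gene (right) in each of the 8 libraries, in percent. The *Id1* share reaches 55.6% in KL-/- replicate 4, and the *Acvr1* share is 15.2% or more in WT and 14.3% or less in KL-/- libraries.

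Compared per kilobase of counted gene, *Bmpr1a* had the highest mean of the 9 genes in both genotypes, with a WT mean of 24.3 ± 2.33 and a KL-/- mean of 27.3 ± 2.54 CPM per kilobase (SD, n = 4). *Id2* had the lowest means, 2.94 ± 0.455 for WT and 1.84 ± 0.622 for KL-/- libraries. In WT the order was *Bmpr1a*, *Id3*, *Bmpr2*, *Id1*, *Acvr1*, *Smad5*, *Smad1*, *Smad6* and *Id2*. The libraries of neighbors overlapped for *Id3* and *Bmpr2*, *Id1* and *Acvr1*, *Acvr1* and *Smad5*, and *Smad1* and *Smad6*, and did not overlap for the other 4 pairs of neighbors. In KL-/- muscle *Id1* moved from rank 4 to rank 3 and *Smad5* from rank 6 to rank 5, above *Acvr1*, from which it did not overlap. *Id1* overlapped both of its neighbors there, *Id3* and *Bmpr2*.

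**Figure D4:**
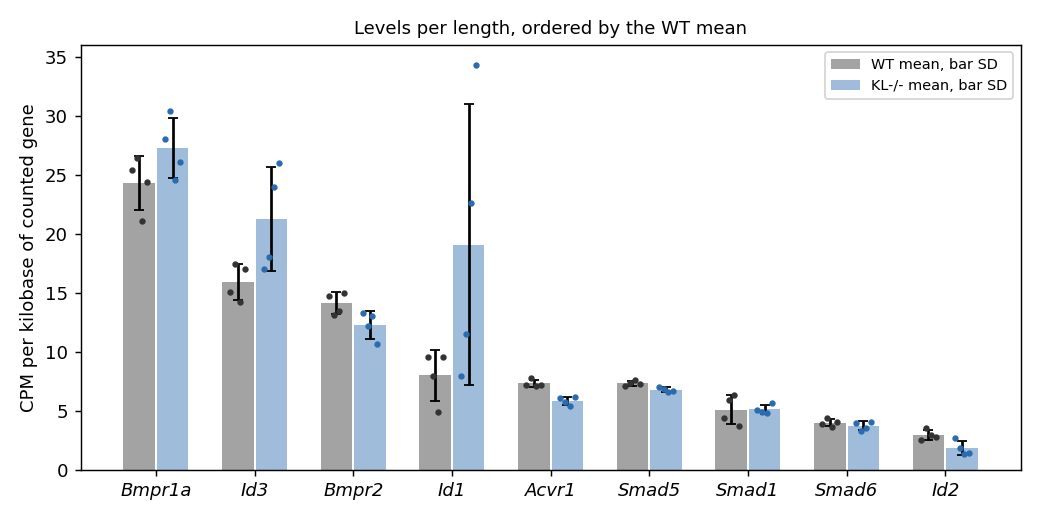
Mean level per kilobase of counted gene (TMM-normalized CPM divided by gene length) for the 9 genes in WT and KL-/- muscle, with SD bars and a point for each library. *Bmpr1a* is highest at 24.3 in WT, and *Id1* has the widest KL-/- spread, from 7.95 to 34.3.

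For each of the 3 ID genes, the genes outside all lists with the most similar profile over the 8 libraries were found by the root mean square difference of centered log2 CPM among 11876 genes. For *Id1* they were *Klf2*, a transcription factor induced by blood flow in endothelium (difference 0.27), and *Tob2* (0.36), while the *Id1* profile itself had an SD of 0.89. *Klf2* was at 22.4, 11.9, 10.9 and 16.6 CPM in WT and at 10.6, 21.3, 39.6 and 49.9 CPM in KL-/- muscle. KL-/- replicates 3 and 4 were its highest libraries, which follows from its choice by likeness to *Id1*. The log2 fold change of *Klf2* was 0.97 (edgeR FDR = 0.148), and that of *Tob2* was 0.92 (edgeR FDR = 0.0496). For *Id2* the closest were *Slit3* (0.12) and *Vasn* (0.12), and for *Id3* they were *Llph* (0.083) and *Map3k15* (0.11). For *Acvr1* they were *Coa3* (0.057) and *Nsun4* (0.059), for *Bmpr1a* *Akirin2* and *Wrnip1* (0.055 for both), and for *Bmpr2* *Eefsec* (0.046) and *Atxn10* (0.048). For *Smad1* they were *Agrn* (0.041) and *Nckap5l* (0.058), for *Smad5* *2210016L21Rik* (0.018) and *Pigq* (0.027), and for *Smad6* *Dnajc11* (0.044) and *Slc35a4* (0.046).

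Around the 9 genes, 55 of 68 other listed genes of the pathway were measured, and 7 passed an FDR under 0.05, 6 lower and 1 higher in KL-/- muscle. That is 12.7%, near the 14.0% of all genes. Among all genes 6.67% passed as lower and 7.35% as higher. The median log2 fold change of the 55 genes was −0.11, and 35 of them were negative.

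Extracellular modulators, which bind BMP ligands outside the cell, held 3 of the 7, all lower, out of 15 measured. *Kcp*, which encodes kielin/chordin-like protein, an enhancer of BMP signaling, was at 4.94, 5.27, 6.94 and 4.16 CPM in WT and at 1.95, 3.44, 1.53 and 2.07 CPM in KL-/- muscle (log2 fold change −1.26, standard error 0.25, edgeR FDR = 0.0128). An antisense gene covers 95 bases of its exons. *Bmper*, which encodes the BMP-binding endothelial regulator, was at 3.39, 4.21, 5.15 and 3.51 CPM in WT and at 2.30, 2.34, 1.33 and 1.88 CPM in KL-/- muscle (log2 fold change −1.05, standard error 0.21, edgeR FDR = 0.0140). In both genes every KL-/- library lay below every WT library, and the call was kept in all 8 fits that left out 1 library. *Twsg1*, which encodes twisted gastrulation, a partner of chordin, fell from 49.8 ± 3.31 to 37.2 ± 4.51 CPM (SD, n = 4, log2 fold change −0.42, edgeR FDR = 0.0199), and lost the call without WT replicate 3, KL-/- replicate 3 or KL-/- replicate 4, with an edgeR FDR of at most 0.0572. The antagonists *Nog* and *Chrd* had log2 fold changes of 0.052 and 0.053 (edgeR FDR = 0.861 and 0.805), both −0.064 with library totals, and were named after their values were seen. Summed endothelial and fibro-adipogenic markers were on average lower in KL-/- muscle, at 590 against 705 CPM and 867 against 2010 CPM, and their part in the modulators was not tested.

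Among 14 intracellular transducers and modulators, 1 was higher and 2 were lower. *Smad4*, the shared partner of the BMP and TGF-beta SMADs, was at 62.1, 59.6, 56.5 and 58.7 CPM in WT and at 82.2, 64.8, 79.9 and 71.3 CPM in KL-/- muscle (log2 fold change 0.33, standard error 0.080, edgeR FDR = 0.0273). Every KL-/- library lay above every WT library. The call was kept in 2 of the 8 fits that left out 1 library, those without WT replicate 1 and without KL-/- replicate 2. In the other 6 the edgeR FDR was at most 0.0784. The call was also lost with library totals (log2 fold change 0.22, edgeR FDR = 0.0921). *Zfp423*, a zinc finger partner of SMAD1 and SMAD4 that also marks adipocyte precursors, had WT libraries between 13.0 and 16.998 CPM and KL-/- libraries between 9.07 and 10.03 CPM, without overlap (log2 fold change −0.69, standard error 0.10, edgeR FDR = 0.00527). It kept the call in all 8 such fits. *Tob1*, a repressor of SMAD-dependent transcription, fell from 273 to 313 CPM in WT libraries to 220 to 261 CPM in KL-/- libraries (log2 fold change −0.30, edgeR FDR = 0.0278). It kept the call in 2 of the 8 fits, those without WT replicate 1 and without KL-/- replicate 2, and the highest edgeR FDR among the other 6 was 0.0831.

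Of 10 other genes listed as targets, 1 passed. *Fbxo30* encodes the ubiquitin ligase MUSA1, which BMP signaling is known to hold down in muscle. It was at 25.4, 23.6, 22.6 and 24.2 CPM in WT and at 18.7, 19.7, 18.1 and 17.7 CPM in KL-/- muscle. Every KL-/- library lay below every WT library (log2 fold change −0.37, standard error 0.068, edgeR FDR = 0.0102), and the call was kept in all 8 fits that left out 1 library.

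No BMP ligand passed among 5 measured of 13 listed. Of the 5, 2 had an unadjusted p under 0.05 by edgeR, as did 32.1% of all genes tested. *Bmp6*, *Bmp5* and *Bmp4* had log2 fold changes of 0.16, −0.78 and −0.19 (edgeR FDR = 0.443, 0.0948 and 0.613). None of 8 other receptors and co-receptors passed, and 1 had an unadjusted p under 0.05. The most abundant, *Hfe2*, which encodes hemojuvelin, had a WT mean of 651 ± 51.0 CPM and a KL-/- mean of 694 ± 64.9 CPM (SD, n = 4). Its log2 fold change was 0.093 (edgeR FDR = 0.487), and −0.025 with library totals. *Eng* and *Rgma* followed, at log2 fold changes of 0.12 and −0.15 (edgeR FDR = 0.742 and 0.392). Among the ligands *Bmp5* passed with DESeq2 and without WT replicate 4 (edgeR FDR = 0.0490). *Bmp7* passed with the likelihood ratio test and with library totals (edgeR FDR = 0.0427). With DESeq2, limma-voom and the likelihood ratio test 0 of the 8 other receptors and co-receptors passed. With library totals *Acvr2a* and *Rgmb* did (edgeR FDR = 0.0215 and 0.0480), and without WT replicate 4 *Rgma* did (edgeR FDR = 0.0439).

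None of the 3 E protein genes passed with edgeR, and 1 had an unadjusted p under 0.05, beside 32.1% of all genes. This was *Tcf4*, which was at 75.9 to 91.4 CPM in WT and at 65.1 to 73.1 CPM in KL-/- muscle, without overlap (log2 fold change −0.27, standard error 0.082, edgeR FDR = 0.0567). It passed with DESeq2, with library totals (edgeR FDR = 0.0146) and without WT replicate 4 (edgeR FDR = 0.0498). *Tcf12* and *Tcf3* had log2 fold changes of −0.016 and −0.15 (edgeR FDR = 0.884 and 0.395). Of all 55 genes, 9 lay lower and 1 lay higher without overlap, where 9.47% and 10.2% of all genes did. The 3 of these that did not pass, *Bmp7*, *Runx2* and *Tcf4*, were singled out after their values were seen.

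**Figure D5:**
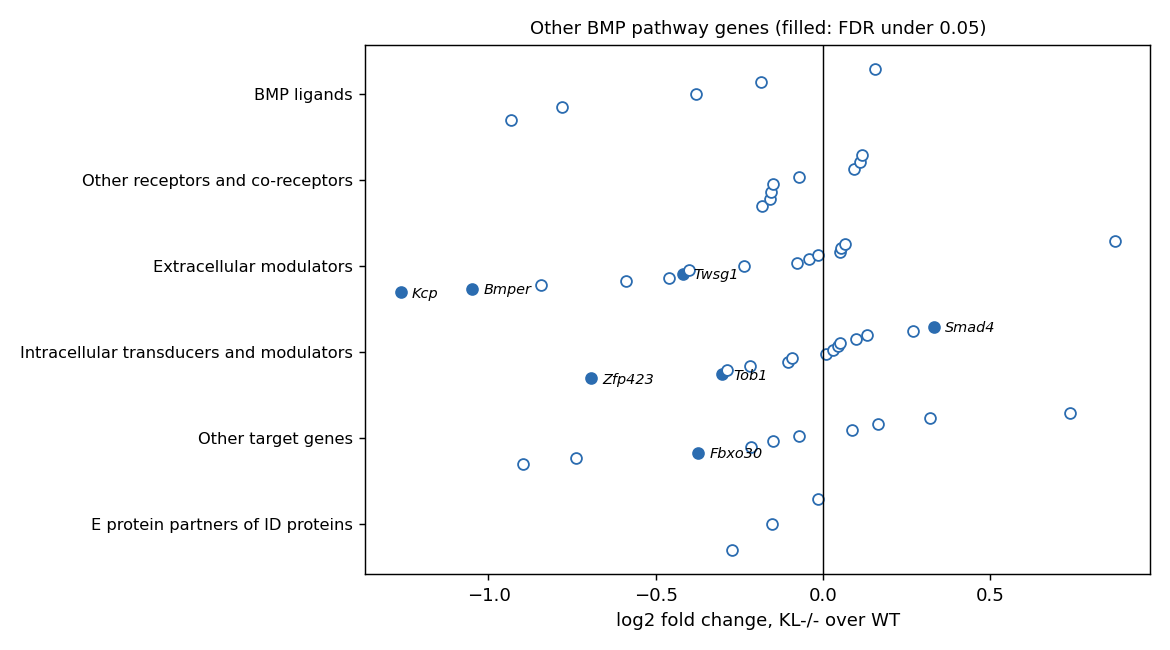
Log2 fold change, KL-/- over WT, of the 55 measured genes in 6 lists of the BMP pathway, with filled and named points for an FDR under 0.05. The 7 filled points run from *Kcp* at −1.26 to *Smad4* at 0.33.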

How the data were processed

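Raw counts per gene from 8 RNA sequencing libraries, 4 WT and 4 KL-/-, were used. The authors deposited these counts after mapping reads to mm10 with STAR, removing low-quality alignments and counting with featureCounts. The table also gives the length of each counted gene and was already limited to expressed genes. Strand setting and annotation version are not given in the sources used here. Groups came from the sample titles.

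The test was edgeR 4.0.16 in R 4.3.3 (filterByExpr, which kept 12551 genes, TMM factors, genotype as the only term, quasi-likelihood test, FDR threshold 0.05). Standard errors are the log2 fold change divided by the root of the test statistic. Totals of 20860262 to 29273758 counts put 3 counts at 0.105 to 0.143 CPM. Levels per length are CPM per kilobase. P-values cover the spread between these samples. The scripts were tested on simulated data, where 40.3% of 1.5-fold, 71.8% of 2-fold and 91.0% of 3-fold changes passed the threshold. A gene that did not pass is therefore not shown to be unchanged. The 9 genes and all lists were chosen with earlier results of these data known. Named genes are the 9 genes, listed pathway genes past the threshold, the 3 most abundant of lists with none past it, and for each of the 9 genes the 2 closest profiles (average log2 CPM of at least 0, prior count 2). Alternatives were RLE factors, library totals, no filter, 10 counts in every library, likelihood ratio and edgeR 3 tests, DESeq2 1.42.0, limma-voom (limma 3.58.1), a replicate block and each library left out. Exon overlaps came from GENCODE annotation of mm10 and promoters from RefSeq on GRCm38.p6.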

Additional observations from a re-analysis of the deposited data

Results flagged for a closer look

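WT replicate 2 lay far from the other WT libraries for *Acvr1*, at 25.7 CPM against 23.5 to 23.8 CPM. It was the only such library among 18 groups of 4 examined, 9 genes in each of the 2 genotypes, where chance gives about 1 in 20 groups. Without it the log2 fold change of *Acvr1* was −0.30, and the FDR by edgeR was 0.0534.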

How the results depend on the processing

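The direction of 7 of the 9 genes was the same in every setting tried, and *Smad1* and *Smad6* were the exceptions. *Smad1* turned to −0.11 with library totals, −0.058 without WT replicate 1, −0.12 without WT replicate 4 and −0.049 without KL-/- replicate 4. Library totals put 18.8% of calls over all genes on the higher side, against 52.4% with TMM factors. They called 4 of the 9 genes, *Acvr1*, *Bmpr2* at −0.32, *Smad5* at −0.23 and *Id2* at −0.78, with a median of −0.21 over the 9 genes. They also called 13 of the 55 other pathway genes, where 20.9% of all genes passed. The likelihood ratio test called 2 of the 9 genes, with *Id1* at 1.26, where 16.9% of all genes passed. DESeq2 called 3 of the 9 genes, with *Id2* at −0.67 and *Id3* at 0.42. It also called 11 of the 55 other pathway genes, where 19.6% of all genes passed. With each library left out the calls over all genes ranged from 762 (6.07%, without KL-/- replicate 3) to 2755 (22.0%, without KL-/- replicate 2). Of the 9 genes 0 passed without WT replicate 2, where 6.21% of all genes did, and 0 without KL-/- replicate 3. Without KL-/- replicate 1, 4 of the 9 genes passed, where 9.75% of all genes did. Of the 55 other pathway genes 4 passed without WT replicate 3, where 6.17% of all genes did. The count was also 4 without KL-/- replicate 3 and without KL-/- replicate 4 (6.20% of all genes), and it was highest without KL-/- replicate 2, at 10. Over the fits with 1 library left out, log2 fold changes ranged from −0.35 to −0.29 for *Acvr1* and −0.12 to 0.12 for *Smad1*. They ranged from 0.81 to 1.53 for *Id1*, −0.92 to −0.55 for *Id2* and 0.30 to 0.52 for *Id3*. With KL-/- replicates 2 and 3 both left out, an alternative added after seeing the data, 0 of the 9 genes passed with edgeR. Of all genes 9.77% passed in that fit. At an unadjusted edgeR p under 0.05 were 3 of the 9 genes and 3655 of all 12551 genes. *Acvr1* was then at −0.26, *Smad6* turned to 0.022 and the median was 0.022. The causes were not tested. With the replicate number as a block 671 genes passed, with 0 of the 9 genes (*Acvr1* at −0.33, edgeR FDR = 0.0635) and 3 other pathway genes, *Fbxo30*, *Kcp* and *Zfp423*. In the block fit 5 of the 9 genes and 3472 of all 12551 genes had an unadjusted edgeR p under 0.05. The labels do not say that a number marks a shared litter, and the deviations of same-numbered libraries had correlations of −0.15, 0.18, −0.37 and 0.017, so the block is no paired design. *Id2* had 42 to 99 counts per library, and *Id1* had the largest standard error of the 9 genes, 0.42.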
